A study of Macaca fascicularis with 3 samples.

Results

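IGF1 and IGF2 encode the insulin-like growth factors, small secreted proteins related to insulin. These 2 genes were followed through the cell classes of cynomolgus macaque (Macaca fascicularis) muscle, and were the rows of those names among the 33368 features of the EOM cell table and the 38550 features of both nuclei tables (Ensembl ENSMFAG00000030766 for IGF1 and ENSMFAG00000044613 for IGF2). Extraocular muscle (EOM), which moves the eye, was profiled as whole cells and as nuclei, and a thigh muscle, the quadriceps femoris (QFM), as nuclei. There were 3 libraries and 1 library per group: EOM cells, EOM nuclei and QFM nuclei. The labels give no treatment, genotype, age or number of animals. QFM is nuclei by its sample title, although its file names speak of single cells. The title was followed here, and if the file names were right, every EOM nuclei against QFM nuclei value would also compare nuclei with cells.

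Both growth factors bind the receptor tyrosine kinase IGF1R, and IGF2 is also taken up and cleared by IGF2R. The binding proteins IGFBP1 to IGFBP6 hold the ligands outside the cell, and proteases such as PAPPA free them. In skeletal muscle IGF1 is known as a growth signal made in the tissue itself as well as in the liver. Macrophages are known to release it during repair in mice. IGF2 is an imprinted gene of fetal growth that is also known from myoblasts entering differentiation.

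Depth was counted in unique molecular identifiers (UMIs), each of which stands for 1 captured RNA molecule. There were 12248405 UMIs over 8979 barcodes in EOM cells, 61618999 over 16491 in EOM nuclei and 72590186 over 12503 in QFM nuclei. Once low-quality barcodes and doublets were taken out, 7111 EOM cells, 13975 EOM nuclei and 10525 QFM nuclei were kept, with medians of 1142, 2811 and 4508 UMIs. Of the deposited barcode sequences, 51 occurred in both nuclei libraries and 0 were shared with the EOM cell library. Of all kept UMIs, IGF1 had 434 in EOM cells, 5387 in EOM nuclei and 2006 in QFM nuclei. IGF2 had 4641, 2083 and 939 UMIs in those libraries. With a single library in each group, the differences are given without a test, and the 95% intervals beside them cover counting error only.

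Classes were set by marker genes. A barcode was CD163-positive (macrophages), PAX7-positive (satellite cells, the stem cells of muscle), PDGFRA-positive (fibroblasts and fibro-adipogenic progenitors) or PTPRB-positive (endothelium) with at least 2 UMIs of that gene. It was myosin-rich with at least 5 UMIs, and 0.5% of its UMIs, from 6 myosin heavy chain genes. Barcodes that passed more than 1 gate were left out. Of the CD163-positive barcodes, 98.4% of EOM cells, 94.4% of EOM nuclei and 97.6% of QFM nuclei lay in macrophage or monocyte-like clusters. Of PAX7-positive nuclei 92.6% in EOM and 95.5% in QFM were in satellite cell-like clusters, and of PDGFRA-positive nuclei 99.2% in EOM and 98.4% in QFM were in fibroblast-like ones. Of PTPRB-positive barcodes, 71.8% of EOM cells, 97.8% of EOM nuclei and 96.4% of QFM nuclei were in endothelial-like clusters, and 24.5% of the EOM cells were in unnamed clusters. Myosin-rich nuclei were less uniform, with 67.2% in EOM and 71.2% in QFM in myofibre-like clusters. Clusters that met no naming rule held 27.8% of them in each muscle. Named clusters of other classes held the rest. Fibroblast-like ones had 2.03% in EOM and 0.644% in QFM, and macrophage or monocyte-like ones 0.323% and 0.0429%. EOM cells held only 1 PAX7-positive, 27 PDGFRA-positive and 11 myosin-rich barcodes, so these classes are described from nuclei.

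In both muscles IGF1 was highest in CD163-positive and PAX7-positive nuclei, lower in PDGFRA-positive nuclei, and lowest in PTPRB-positive and myosin-rich nuclei. IGF2 had another pattern. It was highest in PDGFRA-positive nuclei in EOM and in PTPRB-positive nuclei in QFM, and in EOM cells it was high in both of these classes. Levels are given as CPM, the UMIs of the gene per 1000000 UMIs of the class, and differences as the log2 ratio of 2 such levels.

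**Figure D1:**
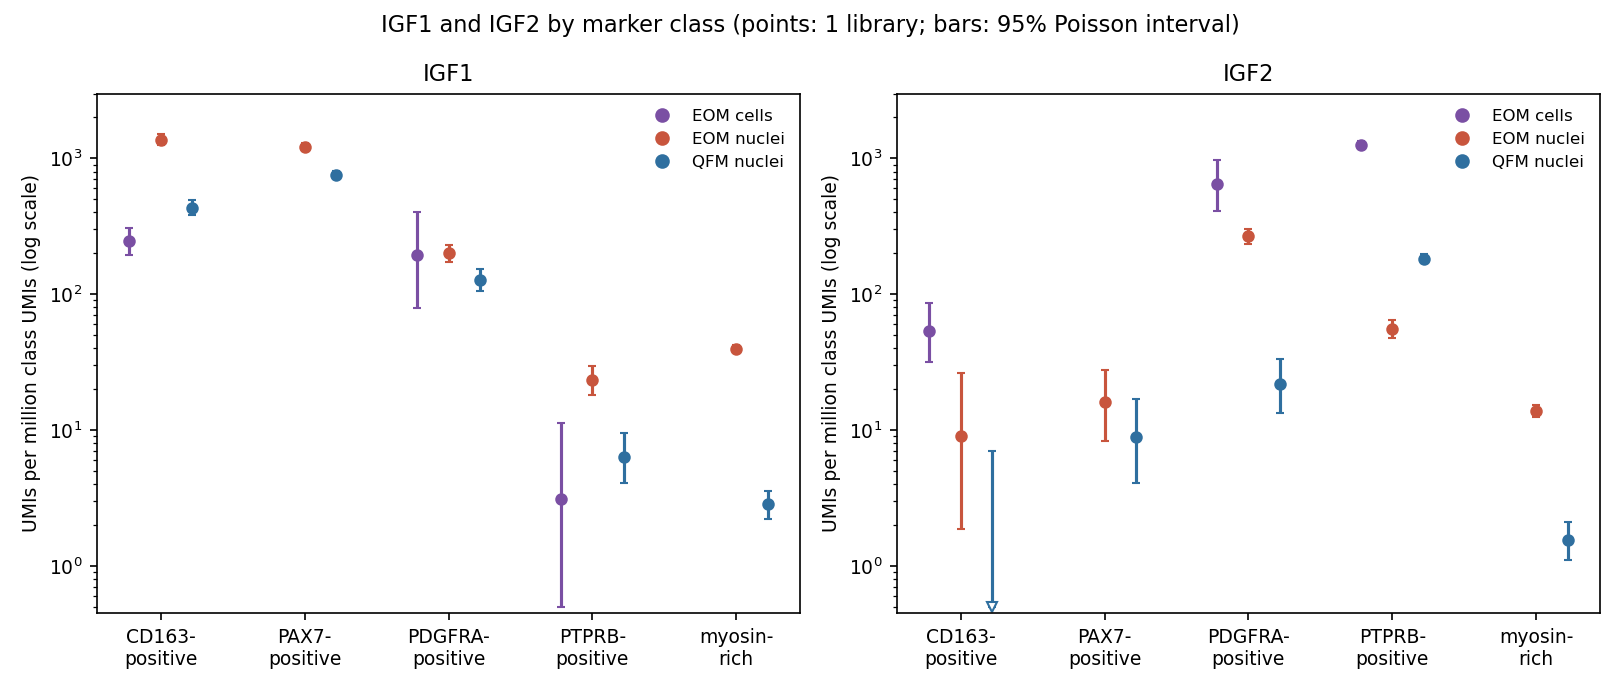
Levels of IGF1 (left) and IGF2 (right) in 5 marker classes, in CPM on a log scale; each point is 1 library (EOM cells, EOM nuclei, QFM nuclei), bars are 95% Poisson intervals, and an open triangle marks 0 UMIs with its upper limit. Classes of under 20 barcodes are not drawn. IGF1 is highest in CD163-positive and PAX7-positive nuclei, and IGF2 in PTPRB-positive and PDGFRA-positive barcodes.

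IGF1 in CD163-positive barcodes was 245 CPM (77 UMIs in 128 barcodes, interval 193 to 306) in EOM cells, 1375 CPM (455 UMIs in 125 barcodes, 1252 to 1507) in EOM nuclei and 434 CPM (228 UMIs in 123 barcodes, 380 to 495) in QFM nuclei. EOM nuclei stood above both other libraries, and no intervals overlapped. An IGF1 UMI was seen in 27.3% of the EOM cells, 72.0% of the EOM nuclei and 48.0% of the QFM nuclei of this class. After each barcode was thinned to 1000 UMIs, leaving out 9, 5 and 1 shallower barcodes, the shares were 21.8%, 54.2% and 27.0%. The log2 ratio of EOM nuclei over QFM nuclei was 1.66 (1.43 to 1.90), in a comparison where 6.86% of 6672 genes were at least 2-fold higher and 15.4% at least 2-fold lower in EOM. It was 0.79 when a barcode could belong to several classes and 2.28 by named clusters. In the macrophage or monocyte-like clusters as a whole the level was 1500 CPM in EOM nuclei, against 308 CPM in QFM nuclei. Neutrophil markers also differed between the CD163-positive classes, in the direction opposite to IGF1 between the nuclei libraries. The neutrophil list, 4 of whose 5 markers have a symbol, summed to 6.04 CPM in EOM nuclei, with S100A8, S100A9 and CXCR2 at 0, and to 1360 CPM in QFM nuclei, with CXCR2 at 0. In CD163-positive EOM cells it summed to 4060 CPM. Macrophage genes went both ways. F13A1 (4095 CPM in EOM nuclei, against 2671 CPM in QFM nuclei) and CD163 (1179, against 892 CPM) were higher in EOM, like IGF1. MRC1 (1260, against 1469 CPM) and LYVE1 (550.0, against 1966 CPM) were lower. The macrophage list summed to 10713 CPM in EOM nuclei and 12162 CPM in QFM nuclei. S100A8, CD14 and ITGAM were among the leading genes of the macrophage or monocyte-like QFM cluster. Their part in the result was not tested.

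Whole EOM cells resolved these macrophages further. IGF1 was at 748 CPM (591 to 935) in the 51 CD163-positive cells with a UMI of LYVE1, a hyaluronan receptor carried by resident macrophages. These cells held all 77 IGF1 UMIs of the class, while the 77 cells in which LYVE1 was not seen held 0, which allows up to 17.4 CPM. The cells without LYVE1 were the deeper ones, with a median of 2628 UMIs against 1987 UMIs in those with it. A split by MRC1, the mannose receptor, gave 771 CPM in 47 cells with it and 4.63 CPM in 81 cells without it. The same division was seen between clusters. The EOM cell cluster led by LYVE1, CCL13 and C1QB had 281 CPM of IGF1, and the monocyte-like cluster led by FCGR3A, CXCL3 and IL1B had 3.36 CPM.

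The nuclei did not divide in this way. In EOM nuclei IGF1 was at 1301 CPM (1151 to 1465) in 76 CD163-positive nuclei with LYVE1 and at 1504 CPM (1293 to 1739) in 49 nuclei without it. In QFM nuclei it was at 418 CPM in 114 nuclei with LYVE1 and at 771 CPM in 9 nuclei without it. LYVE1 itself was at 2008 CPM in CD163-positive EOM cells, 550.0 CPM in EOM nuclei and 1966 CPM in QFM nuclei, and CD163-positive nuclei without a LYVE1 UMI were more common in EOM than in QFM.

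**Figure D2:**
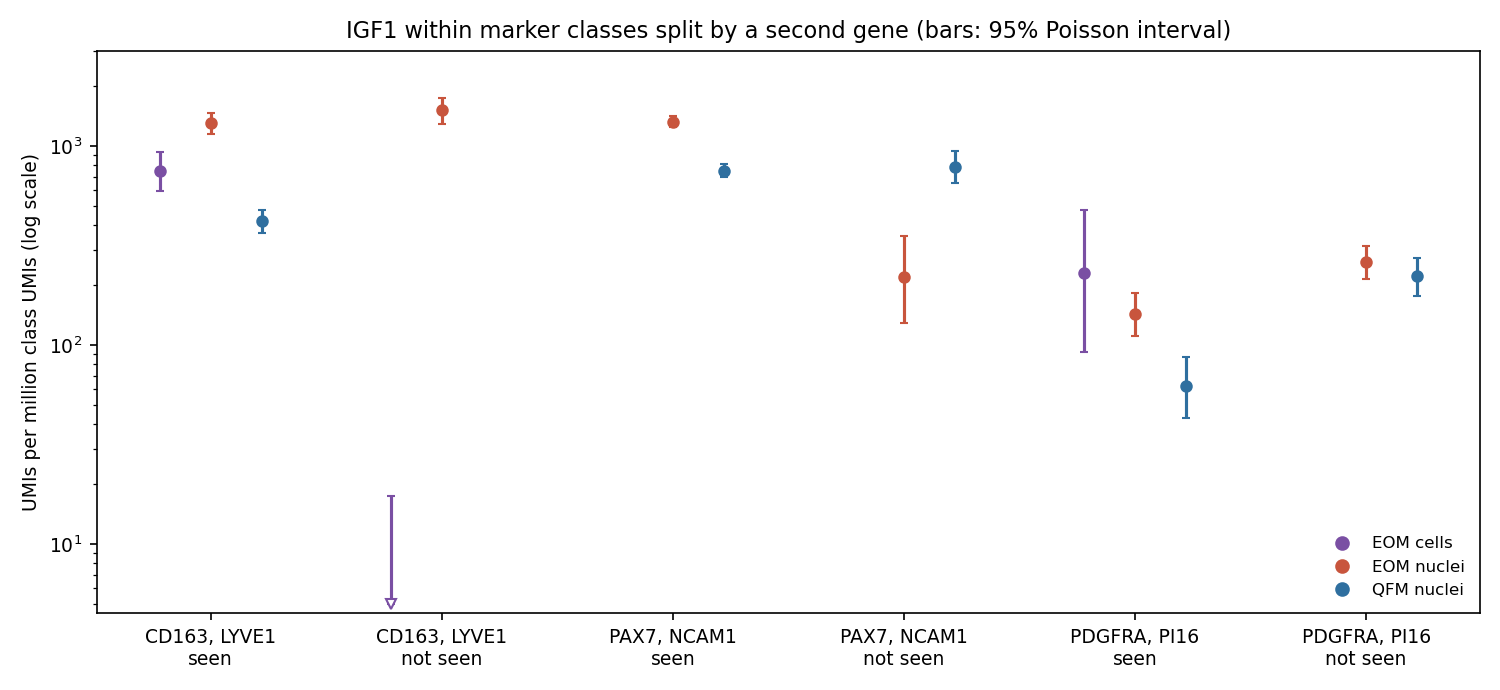
IGF1 level, in CPM on a log scale, in CD163-positive, PAX7-positive and PDGFRA-positive barcodes with and without a UMI of LYVE1, NCAM1 or PI16; points are libraries (EOM cells, EOM nuclei, QFM nuclei) and bars 95% Poisson intervals, and the open triangle marks 0 UMIs. Groups of under 20 barcodes are not drawn. EOM cells with LYVE1 sit at 748 CPM and those without it at 0, while EOM nuclei are above 1000 CPM in both groups.

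IGF1 in PAX7-positive nuclei was 1207 CPM (907 UMIs in 312 nuclei, interval 1130 to 1289) in EOM, against 755 CPM (763 UMIs in 332 nuclei, 702 to 810) in QFM. The intervals were apart, and in EOM that of the CD163-positive nuclei overlapped it, so the order of these classes is not clear there. In QFM the PAX7-positive class was the higher of the pair. The share of PAX7-positive nuclei with an IGF1 UMI was nearly the same in both muscles, 59.0% in EOM and 56.3% in QFM, or 44.9% and 41.8% at 1000 UMIs. The log2 ratio of EOM over QFM was 0.68 (0.54 to 0.82), short of 2-fold. It turned to -1.80 when a nucleus could belong to several classes, which took the PAX7-positive class to 1113 nuclei in EOM and 374 in QFM.

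NCAM1, an adhesion molecule of satellite cells, split the EOM class but not the QFM class. In EOM, IGF1 was at 1321 CPM in 282 PAX7-positive nuclei with NCAM1 and at 220.0 CPM (128 to 352) in 30 nuclei without it. In QFM it was at 749.7 CPM in 278 nuclei with NCAM1 and at 785 CPM in 54 nuclei without it. The EOM nuclei with NCAM1 were deeper, with a median of 2098 UMIs, against 1614 UMIs in those without it. Of the PAX7-positive EOM nuclei, 289 lay in the satellite cell-like cluster, 12 in myofibre-like and 6 in fibroblast-like ones. Whether the nuclei outside the satellite cell-like cluster were those without NCAM1 was not tested. IGF2 was scarce in satellite cells, at 16.0 CPM (12 UMIs) in EOM, against 8.90 CPM (9 UMIs) in QFM. That ratio, 0.84 on the log2 scale (-0.53 to 2.27), cannot be told from no difference at this depth. With a gate of 1 PAX7 UMI it was 2.61 (1.49 to 3.92).

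In PDGFRA-positive nuclei both ligands were measured, and they differed in how far the muscles were apart. IGF1 was at 199.8 CPM (179 UMIs in 255 nuclei, interval 172 to 231) in EOM, against 127 CPM (117 UMIs in 188 nuclei, 105 to 152) in QFM, a log2 ratio of 0.65 (0.31 to 1.002). It was -0.08 (-0.37 to 0.21), with no clear direction, when classes could overlap. IGF2 was at 267 CPM (239 UMIs, 234 to 303) in EOM, against 21.7 CPM (20 UMIs, 13.3 to 33.5) in QFM. This is a log2 ratio of 3.62 (2.96 to 4.36), where 9.65% of 9446 genes were at least 2-fold higher and 16.0% at least 2-fold lower in EOM. It was 1.82 (1.30 to 2.38) when classes could overlap.

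The IGF2 of EOM fibroblasts was spread over many nuclei. A UMI was seen in 43.1% of PDGFRA-positive EOM nuclei and at most 7 UMIs in any of them, against 6.91% of the QFM nuclei. Thinned to 1000 UMIs the shares were 22.8% in EOM and 3.21% in QFM, and the log2 ratio of the thinned sums was 2.49. By fibroblast-like cluster the level was 206 CPM in EOM, against 17.6 CPM in QFM. In EOM cells, the 27 PDGFRA-positive barcodes had 644 CPM of IGF2 (408 to 966) and the 1460 fibroblast-like cells 830 CPM (788 to 874). Endothelial RNA was also higher in the EOM fibroblasts. The endothelial list, 8 of whose 9 markers have a symbol and were seen in each library, summed to 259 CPM in PDGFRA-positive EOM nuclei and 95.6 CPM in QFM nuclei. None of these markers was at 0. The ratio of IGF2 to PECAM1 UMIs was 8.54 in EOM and 1.33 in QFM PDGFRA-positive nuclei, against 0.0507 in EOM and 0.0925 in QFM PTPRB-positive nuclei.

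Within fibroblasts, IGF1 was lower in nuclei with PI16, a marker of the adventitial type. In EOM it was at 143 CPM (110 to 181) in nuclei with PI16 and 261 CPM (215 to 314) in nuclei without it, and in QFM at 62.2 CPM (43.1 to 87.0) with PI16 and 222 CPM (176 to 275) without it. The intervals were apart in both muscles. In QFM, the fibroblast-like cluster led by NEGR1, SCN7A and PID1 had 269 CPM of IGF1, and the one led by VCAN, CLEC3B and GFPT2, with MFAP5 and PI16 also among its leading genes, had 15.5 CPM. By a PI16 UMI, IGF2 did not divide clearly, at 253 CPM with it and 282 CPM without it in EOM, and at 16.5 CPM with it and 29.4 CPM without it in QFM. Between the QFM fibroblast-like clusters IGF2 did divide. It was at 29.7 CPM (22.8 to 38.0) in the one led by NEGR1 and 3.33 CPM (1.22 to 7.25, on 6 UMIs) in the one led by VCAN. In EOM cells the fibroblast-like cluster led by ABCA9, COL15A1 and APOD had 163 CPM of IGF1 and 1365 CPM of IGF2, and the one led by SFRP2, ALOX15 and MFAP5 had 112 and 703 CPM.

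Detection of IGF2 was somewhat more frequent in fibroblasts that had an IGF1 UMI. Among fibroblast-like EOM cells, IGF2 was seen in 42.3% of the 156 cells with IGF1 and in 34.4% of those without it. In EOM nuclei the shares were 34.4% with IGF1 and 29.4% without, and in QFM nuclei 8.97% with IGF1 and 3.87% without. The QFM shares pool clusters that differed in both genes. IGF1 was seen in 31.7% of nuclei of the NEGR1-led cluster and 4.21% of the VCAN-led one, and IGF2 in 7.26% and 1.40%. In EOM nuclei the barcodes with IGF1 were also deeper, with a median of 2746 UMIs, against 2397 UMIs without it. In the few PDGFRA-positive nuclei the order was not the same, with IGF2 in 38.5% of EOM nuclei with IGF1 and 45.2% of those without it. In PDGFRA-positive QFM nuclei the shares were 6.82% with IGF1 and 6.94% without it.

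PTPRB-positive barcodes carried more IGF2 than IGF1, and almost no IGF1 in EOM cells and QFM nuclei. IGF2 was at 1258 CPM (810 UMIs in 323 barcodes, interval 1173 to 1348) in EOM cells, 55.7 CPM (164 UMIs in 945 nuclei, 47.5 to 65.0) in EOM nuclei and 183 CPM (687 UMIs in 926 nuclei, 169 to 197) in QFM nuclei. EOM nuclei were thus the lowest of the 3 libraries, with no overlap. A UMI was seen in 62.8% of EOM cells, 14.7% of EOM nuclei and 44.4% of QFM nuclei, or in 60.1%, 6.01% and 16.8% at 1000 UMIs. The log2 ratio of EOM nuclei over QFM nuclei was -1.71 (-1.97 to -1.46), opposite in direction to fibroblasts. In this class 11.0% of 12689 genes were at least 2-fold higher and 6.56% at least 2-fold lower in EOM. IGF1 was at 3.11 CPM (2 UMIs) in EOM cells, 23.5 CPM (69 UMIs) in EOM nuclei and 6.38 CPM (24 UMIs) in QFM nuclei. Its log2 ratio of EOM nuclei over QFM nuclei was 1.88 (1.19 to 2.61), but the interval of the EOM level, 18.2 to 29.7 CPM, overlaps that of T or NK-like nuclei given below, and 12 of its UMIs were in 1 nucleus.

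Endothelial-like clusters had the same order of IGF2 in both nuclei libraries, and in EOM cells when a cluster that met no naming rule is counted. The cluster with BMX among its leading genes, a kinase of arterial endothelium, was the highest, at 1853 CPM in EOM cells, 124 CPM in EOM nuclei and 268 CPM in QFM nuclei. The clusters with IFI27 and RAMP3 or RGCC among their leading genes were in the middle at 1118 CPM in EOM cells, 72.4 CPM in EOM nuclei and 184 CPM in QFM nuclei. The clusters with ACKR1, a chemokine receptor of venules, were the lowest at 515 CPM in EOM cells, 32.8 CPM in EOM nuclei and 137 CPM in QFM nuclei. The unnamed one, in EOM cells, also had the lymphatic genes MMRN1 and PROX1 among its leading genes. No neighbouring intervals overlapped in any of the 3 libraries. These clusters were picked out by their leading genes after the values were seen.

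**Figure D3:**
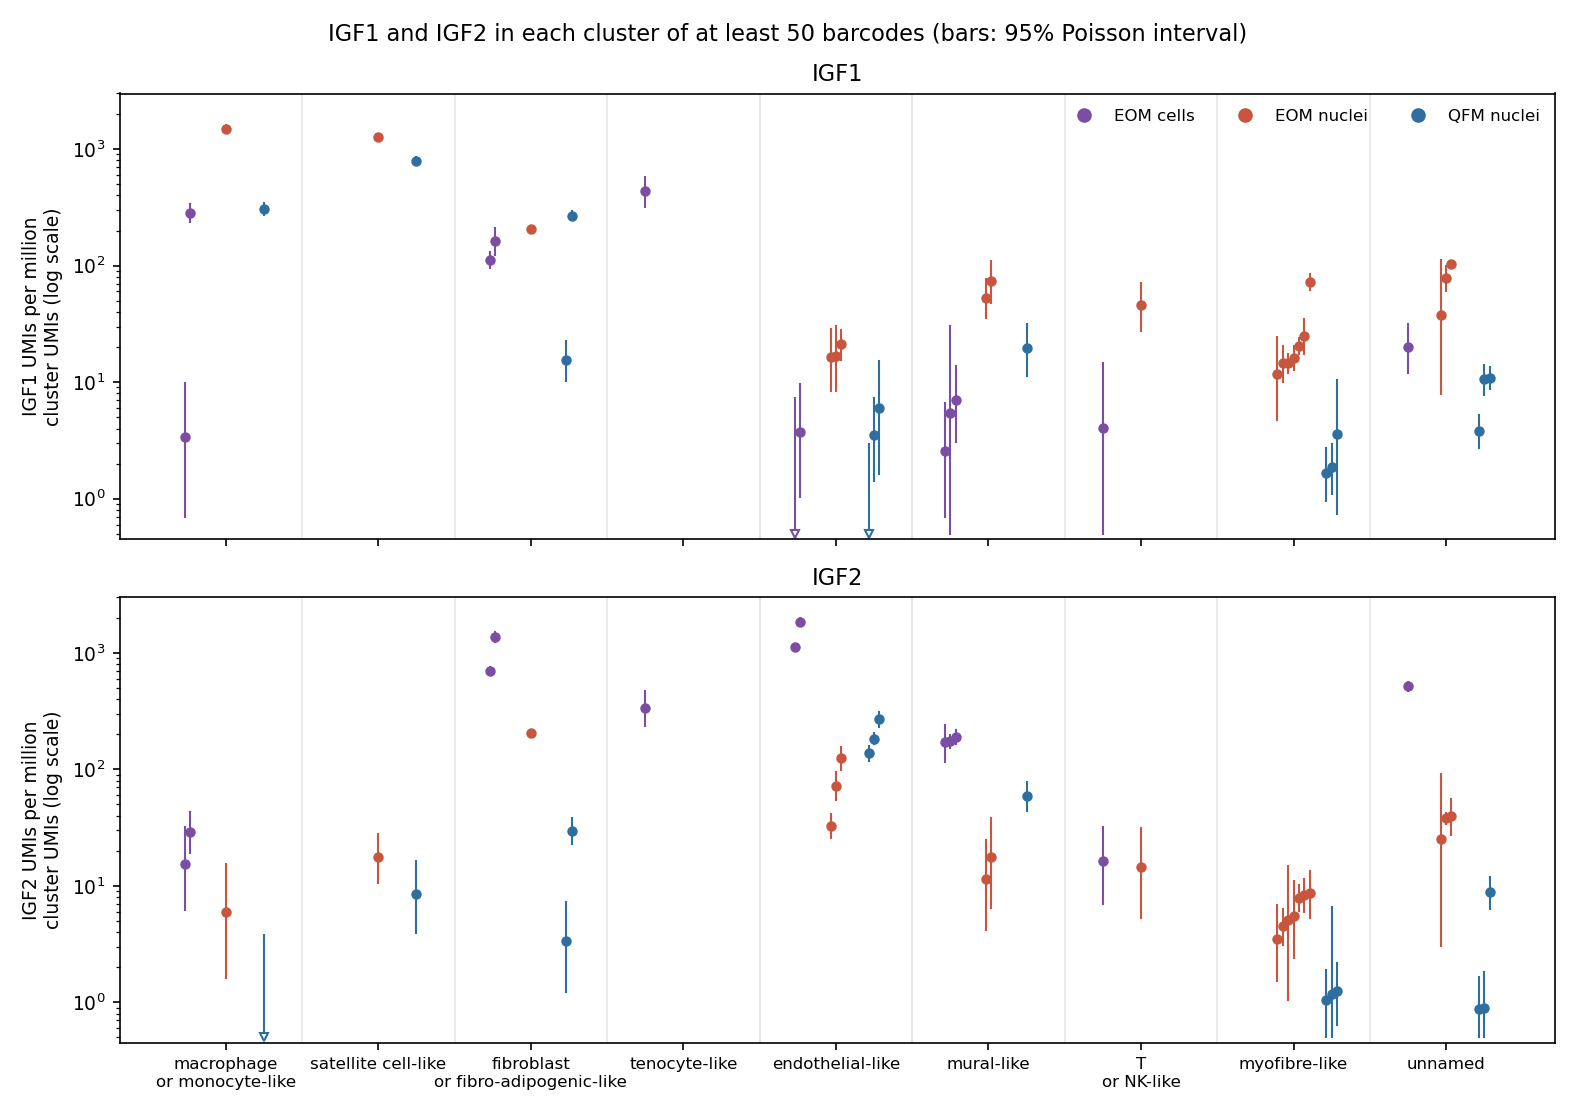
IGF1 (top) and IGF2 (bottom) in Leiden clusters of at least 50 barcodes, in CPM on a log scale, grouped by the name of the cluster (Schwann, neutrophil and perineurial-like clusters not drawn) and coloured by library (EOM cells, EOM nuclei, QFM nuclei); bars are 95% Poisson intervals and open triangles mark 0 UMIs. Within endothelial-like clusters IGF2 covers 32.8 to 124 CPM in EOM nuclei and 137 to 268 CPM in QFM nuclei, and 1 myofibre-like EOM cluster stands above the others in IGF1 at 72.2 CPM.

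Myosin-rich nuclei had low levels of both genes, higher in EOM than in QFM. IGF1 was at 39.6 CPM (1049 UMIs in 7737 nuclei, interval 37.3 to 42.1) in EOM, against 2.84 CPM (73 UMIs in 4658 nuclei, 2.22 to 3.57) in QFM. IGF2 was at 13.8 CPM (366 UMIs, 12.5 to 15.3) in EOM, against 1.55 CPM (40 UMIs, 1.11 to 2.12) in QFM. The log2 ratios were 3.80 (3.46 to 4.17) for IGF1 and 3.15 (2.68 to 3.66) for IGF2, in a class where 33.7% of 18508 genes were at least 2-fold higher and 9.08% at least 2-fold lower in EOM. The median of all genes was shifted by 0.41, and IGF1 stayed at 3.41 and IGF2 at 2.76 after median ratio scaling. The pooled myofibre-like clusters of EOM were below the gate, at 22.1 CPM of IGF1 (20.4 to 24.0) and 6.51 CPM of IGF2 (5.57 to 7.55). Those of QFM had 1.84 CPM (1.30 to 2.54) and 1.14 CPM (0.725 to 1.72), which overlapped the gate. Unnamed clusters, with 27.8% of myosin-rich EOM nuclei, had 99.99 CPM of IGF1 and 38.1 CPM of IGF2 in EOM. Their part in the myosin-rich levels was not tested.

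The myosin-rich levels can be set beside those of the T or NK-like cluster, though it is neither pure nor separate from them. Of its 230 EOM nuclei, 46 were themselves myosin-rich, 4 CD163-positive and 1 PTPRB-positive. Its score for the mast list, 3.44, was close to its 3.89 for the T or NK list. In EOM, T or NK-like nuclei had 45.5 CPM of IGF1 (27.4 to 71.1) and 14.4 CPM of IGF2 (5.28 to 31.3). At 1000 UMIs, 4.75% of myosin-rich and 3.53% of T or NK-like EOM nuclei had an IGF1 UMI, and 1.62% and 0.588% an IGF2 UMI. T or NK-like nuclei had a median of 1437 UMIs, against 3093 UMIs in the myosin-rich ones, and carried 189 CPM of the macrophage gene F13A1, with the mast cell gene CPA3 among their leading genes. PTPRB-positive EOM nuclei were lower in IGF1 than myosin-rich ones, at 23.5 CPM (18.2 to 29.7). In QFM the 41 T or NK-like nuclei held 0 UMIs of either gene, which allows up to 38.1 CPM. The intervals of the EOM myosin-rich levels overlapped those of T or NK-like nuclei for both genes, and the part of free RNA in them was not tested. IGF2 in CD163-positive nuclei (9.07 CPM) and PAX7-positive nuclei of EOM overlapped the T or NK-like interval too, which rests on 6 UMIs. IGF1 in CD163-positive, PAX7-positive and PDGFRA-positive nuclei, and IGF2 in PDGFRA-positive and PTPRB-positive nuclei, stood above that level in EOM with no overlap.

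Markers of some other classes moved with the myosin-rich difference and those of others against it, and their part in it was not tested. The fibroblast list, all 10 of its markers seen in both libraries, summed to 640 CPM in myosin-rich EOM nuclei and 205 CPM in myosin-rich QFM nuclei. The endothelial list, 8 of 9 markers with a symbol and all 8 seen, summed to 316 CPM in EOM and 65.8 CPM in QFM. The macrophage list, 9 of 10 markers with a symbol and all 9 seen, summed to 247 CPM in EOM and 213 CPM in QFM, of which a single gene made up 179.5 CPM in EOM and 197 CPM in QFM. Among the others, F13A1 had 30.2 CPM in EOM, against 3.34 CPM in QFM. CD163 had 5.03 CPM in EOM, against 0.739 CPM in QFM, and MRC1 had 12.5 CPM, against 2.02 CPM in QFM. The satellite cell list, 6 of 8 markers with a symbol and all 6 seen, summed to 195 CPM in EOM and 306 CPM in QFM, of which a single gene made up 115 CPM in EOM and 272 CPM in QFM. PAX7 itself had 53.3 CPM in EOM, against 4.70 CPM in QFM, and CHRDL2 had 4.91 CPM in EOM, against 0.972 CPM in QFM. The mural list was lower in EOM, at 374 CPM against 701 CPM in QFM, of which a single gene made up 298 and 668 CPM. So was the adipocyte list, at 48.3 CPM against 135 CPM, of which a single gene made up 31.2 and 121 CPM.

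The ratio of IGF2 to marker UMIs varied with the marker and the muscle. In EOM the ratio of IGF2 to DCN UMIs, DCN being a matrix gene of fibroblasts, was 0.0892 in myosin-rich, 0.0857 in CD163-positive, 0.0952 in PAX7-positive and 0.112 in PDGFRA-positive nuclei. The CD163-positive ratio rested on 3 IGF2 and 35 DCN UMIs, and the PAX7-positive one on 12 and 126. It was 0.505 in PTPRB-positive nuclei. In QFM it was 0.0250 in myosin-rich and 0.0064 in PDGFRA-positive nuclei. The ratio of IGF2 to VWF UMIs, VWF being an endothelial gene, was 0.275 in myosin-rich and 0.0415 in PTPRB-positive EOM nuclei, and 0.131 in myosin-rich and 0.129 in PTPRB-positive QFM nuclei.

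One group of EOM myofibre nuclei was higher in IGF1 than the others. The myofibre-like cluster of 577 nuclei led by ADAM7, NDP, CORIN and MYH6 had 72.2 CPM (61.7 to 84.0), with a UMI in 15.1% of nuclei, while the other myofibre-like EOM clusters had 11.8 to 25.0 CPM and endothelial clusters 16.4 to 21.1 CPM. Its interval overlapped those of T or NK-like nuclei and of the mural-like cluster at 73.6 CPM. DCN was at 96.0 CPM in this cluster, within the 80.7 to 106 CPM of the other myofibre-like clusters. F13A1 was at 17.7 CPM and the satellite cell gene CHRDL2 at 1.73 CPM, also within the range of the others. MYH6, the alpha cardiac myosin heavy chain, was at 229.5 CPM there. Among its nuclei, IGF1 was at 171 CPM (140 to 207) in 131 nuclei with a MYH6 UMI and at 36.5 CPM (27.9 to 46.7) in 446 nuclei without one. The nuclei with MYH6 stood above T or NK-like nuclei, and those without it did not. Their median depths were 4189 and 3454 UMIs. Over all myosin-rich EOM nuclei the levels were 97.1 CPM in 285 nuclei with MYH6 and 36.9 CPM in 7452 without it. In QFM they were 7.98 CPM (9 UMIs, 3.65 to 15.2) in 144 nuclei with MYH6 and 2.60 CPM (64 UMIs) in 4514 without it. This cluster and the MYH6 division were chosen after the values were seen. IGF2 was at 8.64 CPM in the same cluster, against 3.51 to 8.35 CPM in the other myofibre-like EOM clusters.

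In QFM, IGF1 was at 1.66 to 3.56 CPM in myofibre-like clusters. The slow-gene clusters, which met no naming rule, had 3.79 CPM in the one with ATP2A2 and TNNI1 among its leading genes and 10.9 CPM in the one with DKK2, MYL6B and ANKRD2. Of the 86 IGF1 UMIs of that second cluster, 22 lay in 1 nucleus. MYH7, the slow myosin, divided IGF1 in EOM only slightly, at 47.0 CPM in myosin-rich nuclei with it and 35.2 CPM without it, and in QFM not at all, at 2.84 and 2.83 CPM.

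The named clusters held the UMIs of each gene in different proportions. Of IGF1 UMIs, fibroblast-like clusters held 49.3% in EOM cells, 23.9% in EOM nuclei and 29.8% in QFM nuclei, and macrophage or monocyte-like clusters 29.95%, 18.7% and 14.96%. Satellite cell-like nuclei, 3.96% of EOM and 3.73% of QFM nuclei, held 25.5% of IGF1 UMIs in EOM, against 41.8% in QFM. Of IGF2 UMIs, endothelial-like clusters held 45.6% in EOM cells, 9.94% in EOM nuclei and 75.9% in QFM nuclei, and fibroblast-like clusters 31.4%, 61.4% and 7.35%. Unnamed clusters held 18.2% of IGF1 and 18.0% of IGF2 UMIs in EOM nuclei, of which 914 IGF1 and 339 IGF2 UMIs were in a cluster of 1857 nuclei led by TAFA1 and mitochondrial genes. These shares depend on how many barcodes of each class were captured. By marker gate, the 7737 myosin-rich EOM nuclei still held 19.5% of IGF1 and 17.6% of IGF2 UMIs through their number.

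**Figure D4:**
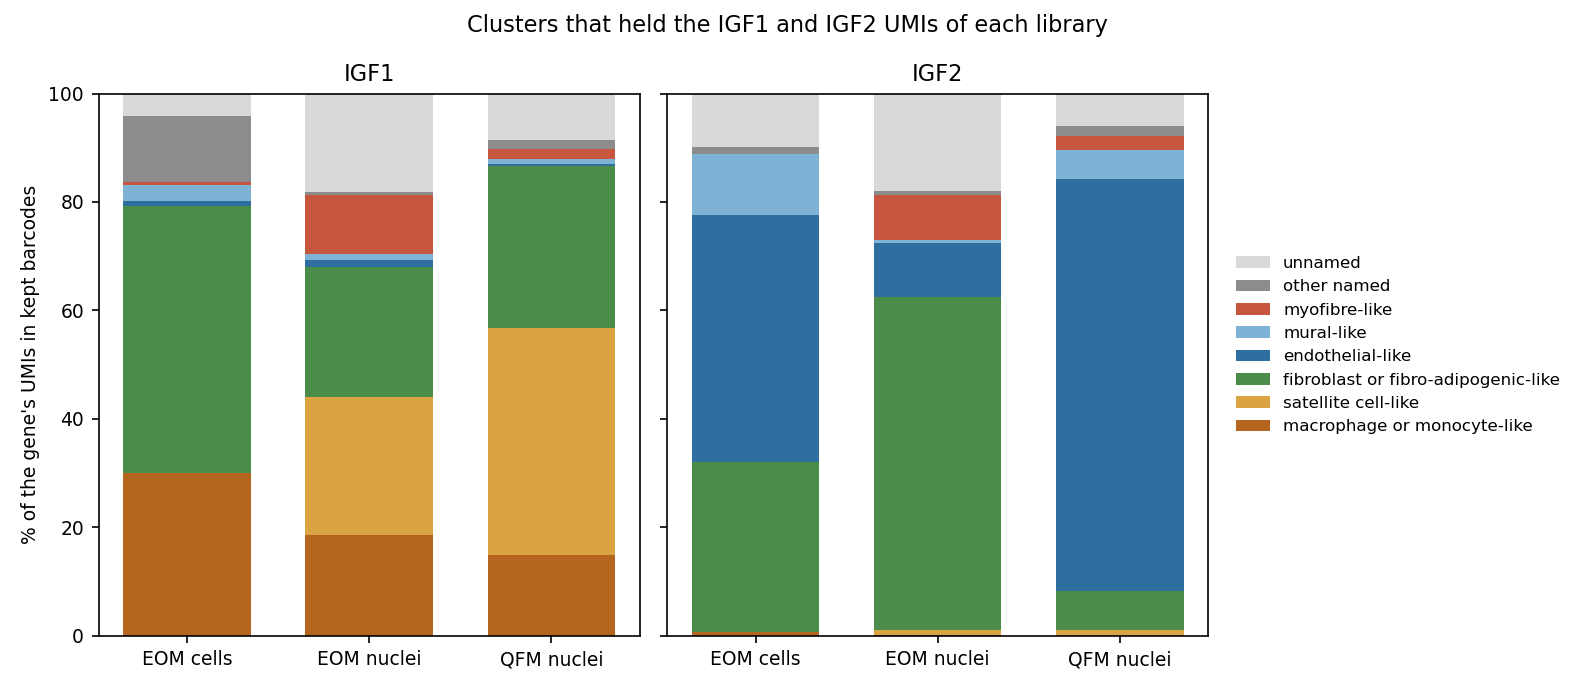
Share of the IGF1 (left) and IGF2 (right) UMIs of each library that lay in each cluster class, in percent of the UMIs in kept barcodes; stacked bars are EOM cells, EOM nuclei and QFM nuclei, and colours are cluster classes. For IGF2, endothelial-like clusters hold 75.9% in QFM nuclei and 9.94% in EOM nuclei, where fibroblast-like clusters hold 61.4%.

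Whole cells and nuclei of EOM differed in opposite directions for the pair. In CD163-positive barcodes the log2 ratio of EOM cells over EOM nuclei was -2.49 (-2.86 to -2.14) for IGF1. The classes differed in make-up, since LYVE1 was seen in 51 of 128 cells and 76 of 125 nuclei, and among those with it IGF1 was at 748 CPM in EOM cells and 1301 CPM in EOM nuclei. In PTPRB-positive barcodes it was 4.50 (4.25 to 4.75) for IGF2 and -2.92 (-5.99 to -1.01) for IGF1, on 2 UMIs in cells. The IGF2 ratio in CD163-positive barcodes, 2.57 (0.79 to 4.99), rested on 17 UMIs in cells, of which 11 lay in 1 barcode, and on 3 UMIs in nuclei. The preparations also differ in barcode design, 27 letters in cells and 16 in nuclei, and in the gene annotation of their tables, so their part in these differences cannot be told apart.

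Smaller classes added to this map. In EOM cells, the tenocyte-like cluster of 95 cells led by THBS4, CHAD and KERA had the highest IGF1 of any cluster in that library, 433 CPM (317 to 577), though this interval overlapped that of the LYVE1-led macrophages, with 339 CPM of IGF2. Satellite cell was the second-best list of this tenocyte-like cluster, with a score of 1.79 against 2.63 for tenocyte. Its PAX7 was at 28.2 CPM, where 1 UMI is 9.41 CPM. Mural-like clusters of pericytes and smooth muscle had 180 CPM of IGF2 in EOM cells, 13.8 CPM in EOM nuclei and 58.6 CPM in QFM nuclei. In QFM, the lymphatic-like cluster of 41 nuclei led by CCL21 and RELN had 201 CPM of IGF1 (132 to 295) and 0 UMIs of IGF2, and the perineurial-like cluster of 40 nuclei had 112 CPM of IGF2 (66.2 to 176).

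The receptors were widely present. IGF1R, the signalling receptor of both ligands, was at 184 CPM in CD163-positive, 663 CPM in PAX7-positive, 771 CPM in PDGFRA-positive, 833 CPM in PTPRB-positive and 452 CPM in myosin-rich EOM nuclei. In QFM nuclei it was at 133 CPM in CD163-positive, 734 CPM in PAX7-positive, 402 CPM in PDGFRA-positive, 570.3 CPM in PTPRB-positive and 119 CPM in myosin-rich nuclei. The myosin-rich difference, 1.92 (1.87 to 1.98), was the only one past 2-fold among these, and PDGFRA-positive nuclei were at 0.94. IGF2R, the clearing receptor, was within 2-fold in all 4 classes where it was measured, from -0.16 in PTPRB-positive to 0.58 in myosin-rich nuclei. INSR, the insulin receptor, was higher in EOM in PDGFRA-positive nuclei at 1.12 and in PTPRB-positive nuclei at 1.13, and at -0.17 in myosin-rich nuclei. GHR, the growth hormone receptor that drives IGF1 in liver, was at 74.4 CPM in myosin-rich EOM nuclei, against 373 CPM in QFM nuclei, a log2 ratio of -2.32. In PDGFRA-positive nuclei it was at 439 CPM in EOM, against 248 CPM in QFM.

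Binding proteins hold the ligands in the matrix and the blood. Counts of measured members at least 2-fold apart are given with the share of all genes in brackets, and rest on few members. In CD163-positive nuclei 2 of 3 were lower in EOM (15.4%) and 1 higher (6.86%). In PAX7-positive nuclei 1 of 5 was lower (13.5%) and 0 higher (9.28%). In PDGFRA-positive nuclei 2 of 5 were lower (16.0%) and 1 higher (9.65%). In PTPRB-positive nuclei 3 of 6 were lower (6.56%) and 1 higher (11.0%). In myosin-rich nuclei 0 of 6 were lower (9.08%) and 5 higher (33.7%). In PTPRB-positive nuclei IGFBP2 was at 95.2 CPM in EOM, against 551 CPM in QFM, a log2 ratio of -2.53. IGFBP3 (-1.68) and IGFBP7 (-1.05), a distant family member of vessels, were also more than 2-fold lower in EOM there, and IGFBP6 (-0.99) and IGFBP4 (-0.76) fell short of it. In PDGFRA-positive nuclei IGFBP6, which prefers IGF2, was at 366 CPM in EOM, against 1355 CPM in QFM (-1.89). IGFBP3 was at 2.23 CPM in EOM, against 21.7 CPM in QFM (-3.28, interval -6.42 to -1.24, on 2 UMIs in EOM), while IGFBP5 (1.04) was higher in EOM and IGFBP4 (-0.41) and IGFBP7 (0.92) were within 2-fold. In PAX7-positive nuclei IGFBP5 was at 680.3 CPM in EOM, against 1739 CPM in QFM (-1.35), and IGFBP2 (-0.30), IGFBP4 (-0.53), IGFBP6 (-0.77) and IGFBP7 (0.36) were within 2-fold. In CD163-positive nuclei IGFBP4 was at 169 CPM in EOM, against 512 CPM in QFM (-1.60), with IGFBP6 at -2.09 and IGFBP7 at 1.67. IGFBP5 in PTPRB-positive nuclei was higher in EOM (1.81), at 17.7 CPM against 5.05 CPM in QFM. In myosin-rich nuclei IGFBP2, IGFBP3, IGFBP4, IGFBP5 and IGFBP7 were 1.03 to 2.28 higher in EOM on the log2 scale and IGFBP6 0.52.

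**Figure D5:**
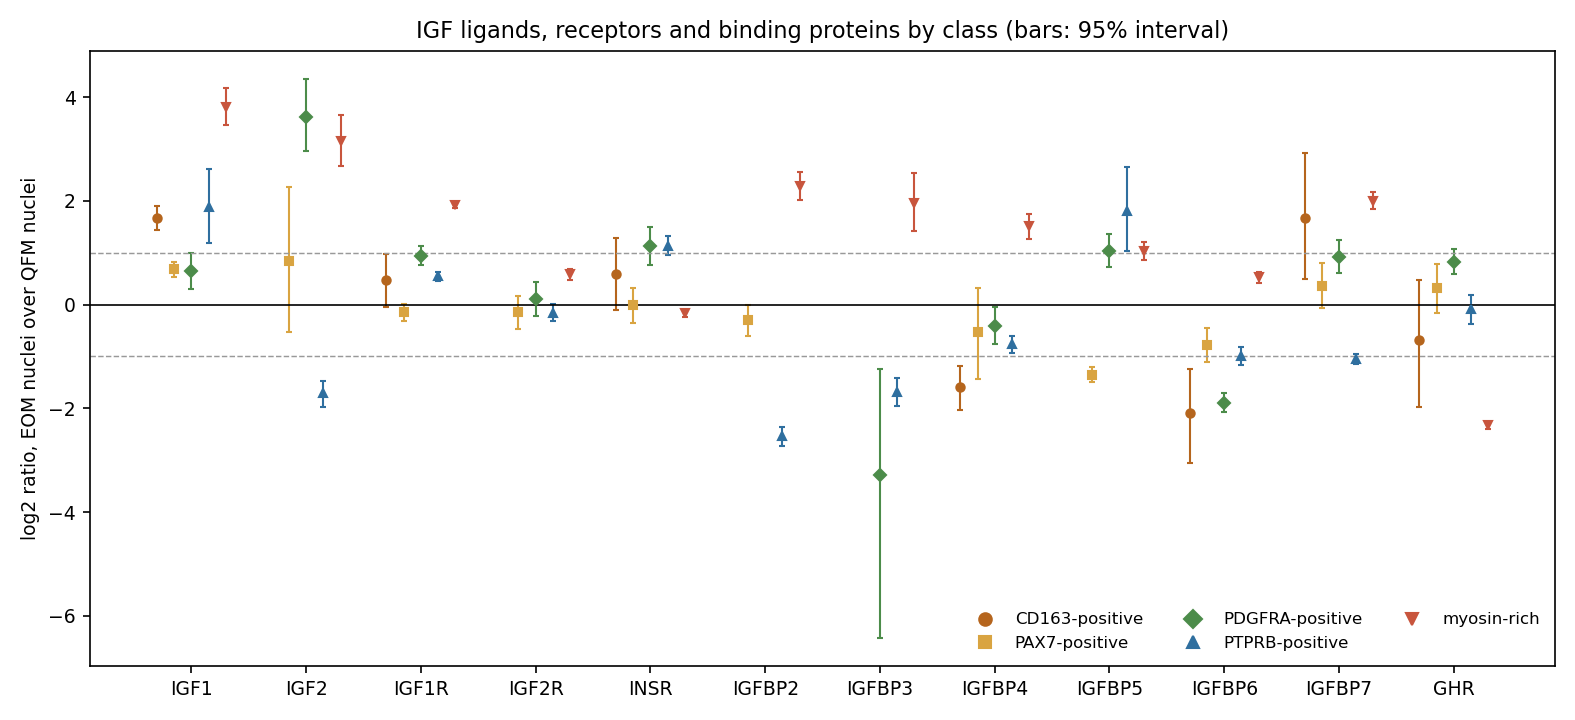
Log2 ratio of EOM nuclei over QFM nuclei for IGF1, IGF2, their receptors, the binding proteins and GHR in 5 marker classes; bars are 95% conditional binomial intervals and dashed lines mark 2-fold. IGF2 is above 0 in PDGFRA-positive and myosin-rich nuclei and below 0 in PTPRB-positive nuclei, where IGFBP2, IGFBP3 and IGFBP7 are also below -1.

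Of the 43 genes listed for the pathway, 38 have a symbol in the nuclei tables. In CD163-positive nuclei 17 were measured, of which 4 were at least 2-fold higher in EOM and 3 at least 2-fold lower, with a median log2 ratio of 0.38 against -0.03 over all genes, of which 6.86% were higher and 15.4% lower. In PAX7-positive nuclei 3 of 25 were higher and 2 lower (median -0.07, against 0.00), where 9.28% of 9655 genes were higher and 13.5% lower. In PDGFRA-positive nuclei 6 of 27 were higher and 5 lower (0.22, against -0.07), where 9.65% of all genes were higher and 16.0% lower. In PTPRB-positive nuclei 5 of 27 were higher and 6 lower (-0.02, against 0.07), where 11.0% of all genes were higher and 6.56% lower. In myosin-rich nuclei 18 of 32 were higher and 3 lower (1.58, against 0.41), where 33.7% of all genes were higher and 9.08% lower. The ligands are counted among these.

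Among the signalling genes, GRB14, an adaptor that restrains the insulin receptor, was the most uneven. It was at 594 CPM in myosin-rich EOM nuclei, against 17.7 CPM in QFM nuclei (5.07), and was also higher in EOM in CD163-positive (4.62, interval 2.65 to 7.73, on 2 UMIs in QFM), PAX7-positive (3.52) and PDGFRA-positive (2.65) nuclei, where the EOM levels were 61.4 to 93.7 CPM. MYH13, a myosin heavy chain of the myosin gate, was at 1345 CPM in CD163-positive, 1389 CPM in PAX7-positive and 1154 CPM in PDGFRA-positive EOM nuclei. In myosin-rich EOM nuclei it was at 10549 CPM. The part of free myofibre RNA in the GRB14 levels of the other classes was not tested. PIK3R1, a regulatory subunit of PI3-kinase, was at 65.3 CPM in myosin-rich EOM nuclei, against 170.5 CPM in QFM nuclei (-1.39). AKT1, at no more than 32.6 CPM in either class, was lower in EOM in PDGFRA-positive (-2.55) and PTPRB-positive (-1.52) nuclei. In PAX7-positive nuclei it had 5 UMIs in EOM and 17 in QFM, a log2 ratio of -1.34 (-3.13 to 0.16) that includes no difference, and is named there after its values were seen.

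IGF2BP2, which binds IGF2 mRNA, was higher in EOM in PAX7-positive (1.60), PDGFRA-positive (3.41), PTPRB-positive (1.51) and myosin-rich (1.92) nuclei. In PDGFRA-positive nuclei it was at 69.2 CPM in EOM, against 6.51 CPM in QFM. IGF2BP3, of the same family, was at 45.3 CPM in EOM, against 13.3 CPM in QFM, in CD163-positive nuclei (1.77). PLAG1, a transcription factor that can activate IGF2, was at 20.2 CPM in EOM, against 2.68 CPM in QFM, in myosin-rich nuclei (2.91). PAPPA, which cleaves IGFBP4, was higher in EOM in PAX7-positive (1.60) and PDGFRA-positive (1.08) nuclei. PAPPA2 (-4.71, interval -10.07 to -2.11, on 1 UMI in EOM) and ADAM12 (-1.07), both proteases of binding proteins, were lower in EOM in PDGFRA-positive nuclei, and the protease HTRA1 was lower in CD163-positive nuclei (-1.13).

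The genes whose level followed each ligand most closely across clusters were found among 8764 genes, over 21 EOM and 14 QFM nuclei clusters. For IGF1 they were BCAT1, TMEM71, KLHL13, APOE and CYRIA, with mean Pearson correlations of 0.88, 0.86, 0.85, 0.84 and 0.84. For IGF2 they were LDB2, FAT4, TNFSF10, ANXA3 and SHROOM4, with 0.87, 0.86, 0.84, 0.84 and 0.82. The clusters of a library share its depth and its free RNA, so these values describe likeness only.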

How the data were processed

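For each of the 3 libraries, grouped by sample title, the authors deposited unnormalized UMI counts for every gene in every barcode. The headers of both nuclei tables name Cell Ranger 7.2.0, and Seurat 5.2.1 is also in the submitters' processing notes. Which genome build and annotation were used, and whether intronic reads were counted, is not given in the sources used here. Genes of the cell table are named in the style of NCBI, and 723 of its features were given symbols through NCBI gene identifiers.

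Barcodes were kept with at least 200 genes, 500 UMIs and at most 10% (nuclei) or 20% (cells) mitochondrial UMIs. Scrublet in scanpy (expected rate 6%) called 188 doublets in EOM cells (2.58%), 2498 in EOM nuclei (15.2%) and 1866 in QFM nuclei (15.1%), which were removed. Each library was clustered by itself (2000 variable genes, 30 principal components, 15 neighbours, Leiden resolution 1), giving 15 clusters in EOM cells, 21 in EOM nuclei and 18 in QFM nuclei. A name was given by the best of 15 lists of markers, scored as a mean z of log2(CPM + 5), if the score reached 0.5 and 3 markers were seen in 10% of barcodes, and a cluster of under 1/3 of the library's median depth needed its own marker among its 10 leading genes. The names are rebuilt and may differ from the study's.

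Counts were summed per class and divided by the class total (CPM). Sums have exact Poisson, shares Clopper-Pearson and log2 ratios conditional exact binomial intervals, all at 95%, and a count of 0 was taken as 3 counts. Without replicate libraries no p-value was computed. A gene was measured in a comparison with at least 20 counts over both sums. The ratio step was tested on simulated data. The text names IGF1 and IGF2, every measured ligand, receptor and binding protein of the list, other list members at least 2-fold apart whose higher level reached 20 CPM, and the 5 genes most like each ligand. One member of the list that met this rule is not reported here. The members, classes and gene lists were chosen with earlier results of these data known. COL15A1 has no symbol in the nuclei tables, so fibroblasts were not split by it. Clustering ran in Python 3.11.15 with scanpy 1.11.5, igraph 0.11.9 and scikit-learn 1.9.0 (seed 1), and intervals came from scipy 1.17.1. Alternatives changed the gate to 1 or 3 UMIs, the myosin gate, the doublet step, the scaling, the depth and the classes, and 1 that left out mitochondria-rich clusters was added after seeing the data.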

Additional observations from a re-analysis of the deposited data

Results flagged for a closer look

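IGF2 differed between the muscles in opposite directions in different classes. Its log2 ratio of EOM nuclei over QFM nuclei was 3.62 in PDGFRA-positive nuclei and 3.15 in myosin-rich nuclei, and -1.71 in PTPRB-positive nuclei. What drew attention is the change of sign between classes of the same libraries. With 1 library per muscle the difference between classes was not tested. The interval of the myosin-rich EOM level overlapped that of T or NK-like EOM nuclei, some of which were themselves myosin-rich.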

How the results depend on the processing

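Alternatives were recomputed for every class. With barcodes allowed in several classes, the log2 ratio of EOM nuclei over QFM nuclei for IGF1 turned to -1.80 in PAX7-positive and -0.083 in PDGFRA-positive nuclei, and was 0.79 in CD163-positive, 2.74 in PTPRB-positive and 3.29 in myosin-rich nuclei, while IGF2 was at 1.82 in PDGFRA-positive nuclei. With a gate of 1 UMI, IGF1 was at 2.10 in CD163-positive nuclei and IGF2 at 2.61 in PAX7-positive and -1.18 in PTPRB-positive nuclei, and with 3 UMIs IGF1 was at 1.06 in PTPRB-positive nuclei. By named clusters IGF1 was at 2.28 (CD163-positive) and 2.78 (PTPRB-positive). With called doublets kept, IGF1 was at 1.05 (PAX7-positive) and 3.19 (myosin-rich), and IGF2 at -1.33 (PTPRB-positive). Thinned to 1000 UMIs, IGF1 was at 1.25 (CD163-positive) and 4.36 (myosin-rich), and IGF2 at 2.49 (PDGFRA-positive). With the myosin gate at 1%, IGF1 was at 0.44 (PAX7-positive) and IGF2 at 2.67 (myosin-rich). Median ratio scaling put IGF1 at 3.41 in myosin-rich nuclei, and leaving out mitochondria-rich clusters, an alternative chosen after seeing the data, put it at 3.49. The cause of these shifts was not tested.

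For EOM cells over EOM nuclei, IGF1 in CD163-positive barcodes was at -3.96 by named clusters, and with 1 UMI IGF2 was at 0.68 (CD163-positive) and 4.09 (PTPRB-positive). The CD163-positive share of IGF1 UMIs in EOM cells was 25.8% with 1 UMI and 29.95% by clusters, and the PTPRB-positive share of IGF2 33.1% with 1 UMI and 45.6% by clusters. In EOM nuclei the myosin-rich share of IGF1 was 11.95% with 1 UMI, 24.3% with doublets kept and 10.9% by clusters, and of IGF2 11.6% with 1 UMI, 24.3% with doublets kept and 8.26% by clusters. In QFM nuclei the PAX7-positive share of IGF1 was 34.9% with doublets kept and 41.8% by clusters, and the PTPRB-positive share of IGF2 66.6% with doublets kept. With genes of at least 1 count, pathway genes 2-fold lower were 5 (CD163-positive), 4 (PAX7-positive) and 10 (PTPRB-positive), and 5 were higher in PAX7-positive nuclei.

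Of the values for these main results, 88 more kept their direction and moved by less than counting error, or, for gene counts, by less than 1.5 times. Ratios by named clusters were not computed for myofibres, nor for fibroblasts and endothelium between cells and nuclei. No paired analysis was possible because each group is 1 library. Animals, dissection and library cannot be told apart from muscle, and levels of a few UMIs are limited by depth.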
